A study of Mus musculus with 24 samples.

Results

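Th2 cells in which TDG had been deleted (TDG iKO) were compared with wild-type (WT) Th2 cells. All 8 Th2 libraries of the 24 libraries in the study entered the comparison, 4 TDG iKO and 4 WT, chosen by the genotype, cell type and replicate number in their labels. TDG is the DNA glycosylase that removes oxidised forms of 5-methylcytosine, 5-formylcytosine and 5-carboxylcytosine, so that base excision repair can put an unmodified cytosine in their place, and the study asked whether gene expression in differentiating T cells depends on it. Polyadenylated RNA was sequenced as paired-end reads from directional libraries.

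The mice were 8 to 16 weeks old and on the C57BL/6 background. TDG iKO mice carried floxed Tdg alleles (Tdg fl/fl), CreERT2 inserted at the Ndor1 locus, and a Rosa26-H2B-EGFP/GPI-mCherry reporter behind a loxP-flanked stop. Tamoxifen, which activates CreERT2, was given to Cre-expressing and control mice alike. Whether the WT mice carried CreERT2, floxed Tdg or the reporter was not stated. Naive CD4+ T cells (CD25- and CD44 low among other markers) were sorted from spleen and lymph nodes, so Cd44, which encodes CD44, had been part of the gate before culture. The cells were stimulated through CD3 and CD28 with antibodies at 1 µg/ml in 1000 U/ml IL-4 with IFN-γ blocked for 2 days, and were then expanded for 3 days, according to the labels, with IL-2 at 20 U/ml.

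Th2 cells are the CD4 helper cells that secrete IL-4, IL-5 and IL-13 and drive responses to helminths and allergens. Signalling from the IL-4 receptor through STAT6 induces GATA3, which opens the cytokine locus shared by Il4, Il13 and Rad50, and c-MAF acts with it on Il4. Activated T cells divide rapidly on glucose, and lose methylation at the Il4 locus while they differentiate. The TET enzymes make the oxidised bases that TDG removes.

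The libraries held 7641848 to 26657729 counts assigned to genes. T cell genes were expressed throughout, with Cd3e at 108 to 249 CPM (counts scaled to a common library size). Gata3 was at 268 to 467 CPM and Il4ra at 1190 to 1530 CPM. Ifng, which marks Th1 cells, stayed at or below 0.523 CPM and Il17a, which marks Th17 cells, at or below 0.929 CPM. Other Th1 genes were detected. The Th1 regulator Tbx21 was at 1.65 to 15.5 CPM. Cxcr3 had mean normalised counts of 256 in TDG iKO and 251 in WT, and Il12rb2 967 and 747. Il1rl1, the IL-33 receptor of Th2 cells, ranged from 0 to 46.3 CPM. Replicates 3 and 4 of a genotype differed by little more than counting noise (mean chi-square per gene 1.34 for TDG iKO and 1.51 for WT, with 21.3 to 218 for every other pair of replicates), so they were summed and counted as 1 sample, giving 3 samples of each genotype in 3 same-numbered pairs (1, 2 and 3+4). Library numbers 1 to 4 (replicates 1 and 2) and 17 to 20 (replicates 3 and 4) stood apart, and each set held both genotypes. Within a genotype the mean chi-square was 106 to 218 between the sets. Between replicates 1 and 2 it was 21.3 in TDG iKO and 41.7 in WT. Principal component 1 of the 8 libraries carried 70.8% of the variance. The ribosomal RNA gene Rn45s took 0.347% to 8.34% of the counts. In pair 2 it took 8.34% in TDG iKO and 0.84% in WT, and in pair 1 4.53% and 6.83%. In replicates 3 and 4 of both genotypes it took 0.347% to 0.387%. The part of this difference in the results was not tested. TDG iKO replicate 1 stood apart in its sex-linked genes: it had 16 raw counts for Xist and normalised counts of 2080, 1910, 601 and 507 for the Y-linked Eif2s3y, Ddx3y, Uty and Kdm5d, whereas each of the other 7 libraries had at least 18275 raw counts for Xist and the other samples at most 0.494 for each Y-linked gene. Sex therefore differed between the genotypes in pair 1, and the number of called genes and the counts of the lists that move most are also given without that pair. The labels do not say whether the replicates came from separate mice, so p-values measure the spread between these samples, which may be partly technical.

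Tdg itself (chromosome 10, 82092573 to 82113544, mm9) could not check the labels. Its raw counts were 2, 1, 4 and 1 in TDG iKO replicates 1 to 4 and 7, 2, 3 and 7 in the WT replicates, at or near a floor of 3 counts in both. The mouse genome holds near-identical copies of the Tdg transcript, and HTSeq-count by default assigns no gene to reads that align to several places. The part of these copies in the low counts was not tested. The primers designed in the study for Tdg transcripts are shown because their exact matches locate copies in the genome. Copies that differ within a primer site would be missed.
Tdg forward primer: tgaaaaggaaagtggaccgc
Tdg reverse primer: gtgattcagctgcacctcac
Each primer matched mm9 exactly at 4 places. In Tdg the forward primer lies at chr10:82104205-82104224 in exon 3 of the transcript Tdg-001 and the reverse primer at chr10:82106942-82106961 in exon 5. The other matches faced each other 215 bases apart, from outer end to outer end, at 3 places outside Tdg: in Gm9855 on chromosome 10 (41774627 to 41774841), in Gm5806 on chromosome 15 (82347185 to 82347399) and on chromosome 7 (83390340 to 83390554), where no gene is annotated.

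Few genes changed. Of 10188 genes tested, 15 passed an adjusted p-value of 0.05 (0.147%) in the paired test of DESeq2, 10 higher in TDG iKO (0.0982%) and 5 lower (0.0491%). An unadjusted p under 0.05 was reached by 541 genes, counted over all genes with a p-value, including those without an adjusted one. The genes that rose encode a tumour necrosis factor family cytokine (Lta), a nucleotide-sugar receptor (P2ry14), surface and secreted proteins (Nrn1, Cd44, Igfbp4 and H2-Q10), a drug efflux pump (Abcg2), a cytoskeletal protein (Ermn) and 2 enzymes of oxygen and redox handling (Ero1l and Egln3). The genes that fell were Ndor1, the transcription factors Maf and Ikzf3, and the mRNA decay factors Zfp36 and Zfp36l2. The normalised counts of the genotypes did not overlap for 5 of the 15 (Ndor1, Maf, Abcg2, Nrn1 and P2ry14), and 3.23% of the 9858 genes whose mean normalised count reached 50 had such separation.

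**Figure D1:**
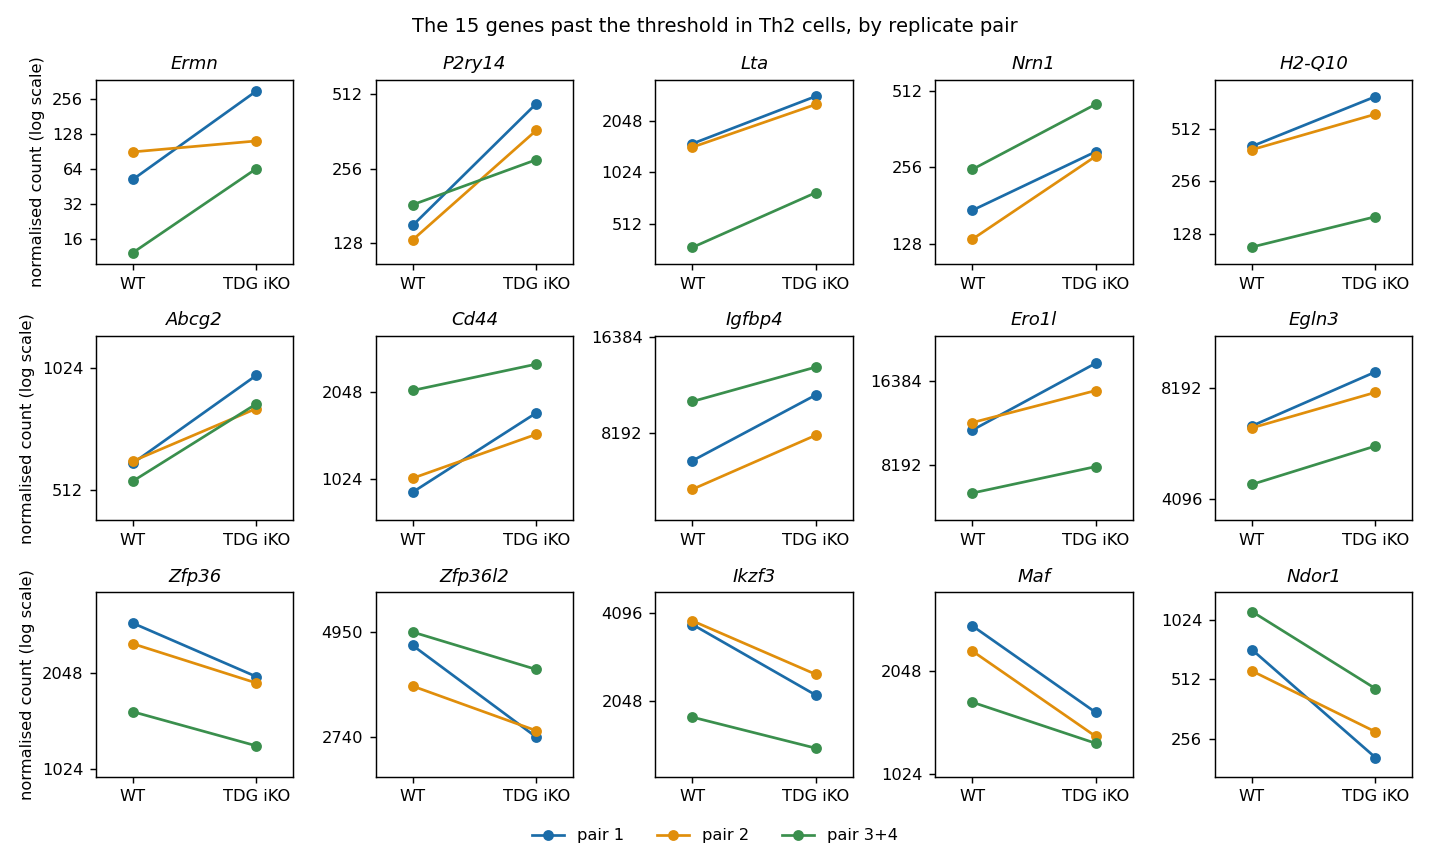
Normalised counts (log scale) of the 15 genes past the threshold in each WT and TDG iKO sample, with a line joining the samples of a replicate pair and the sum of replicates 3 and 4 shown as pair 3+4. In every panel the 3 lines slope the same way, while the pairs themselves sit at different levels, as for Lta at 371 to 1510 in WT.

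The number rested on the pairing and on the tool. Deviations from the genotype means correlated at 0.51 between TDG iKO 1 and WT 1, and at 0.66 between TDG iKO 1 and WT 2, so the numbers of replicates 1 and 2 were not told apart by the data, unlike the library sets. With the library set as the block in place of the number, an alternative chosen after seeing the data, 42 genes were called. Without the replicate pair as a block 0 genes passed in DESeq2 (77 had an unadjusted p under 0.05), and the quasi-likelihood test of edgeR with the block called 2, Lta and Ndor1 (1023 at an unadjusted p under 0.05). With the 8 libraries taken separately and the block kept, DESeq2 called 87 genes (0.88% of 9887 tested), 44 higher and 43 lower, with all 15 among them. That fit treats the near-duplicate replicates 3 and 4 as separate samples, so its p-values understate the spread. Leaving out pair 1 left 2 calls, Lta and Ndor1, and leaving out pair 2 left 5. Lta and Ndor1 were called in each of the 5 fits that left out a replicate or the pair 3+4. Among replicates 1 and 2 alone 14 genes were called, 7 of them among the 15. The set of replicates 3 and 4 held 1 sample of each genotype, which allows no test of its own.

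**Figure D2:**
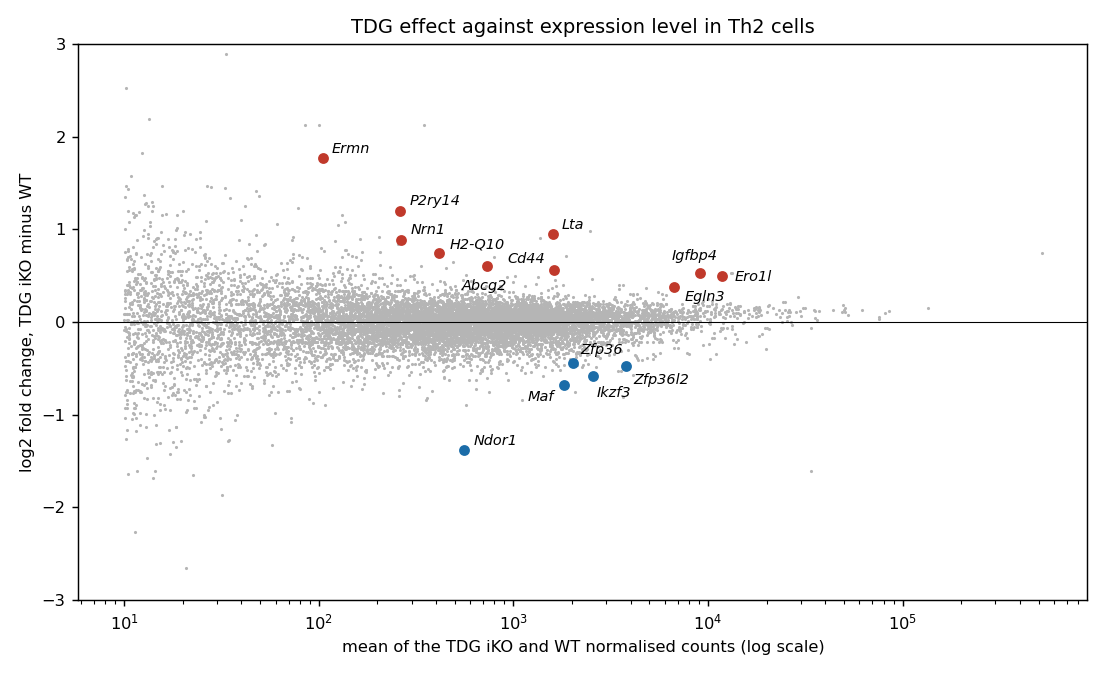
Log2 fold change (TDG iKO minus WT, paired DESeq2 fit) against the mean of the genotype means of the normalised count (log scale) for 11389 genes with a mean of at least 10, of which 2 lie outside the vertical axis. The genes past the threshold are named, in red where higher and in blue where lower in TDG iKO. Ndor1 is lowest at -1.38 and Ermn highest at 1.77 among them.

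Ndor1 (chromosome 2, 25100340 to 25111542), an NADPH-dependent diflavin oxidoreductase, is the gene at which CreERT2 was inserted. Its normalised counts were 205, 277 and 459 in TDG iKO (pairs 1, 2 and 3+4) and 724, 564 and 1130 in WT. Every TDG iKO sample lay below every WT sample, and the log2 fold change was -1.38 (SE 0.17, DESeq2 adjusted p 1.34e-11; edgeR adjusted p 0.0304). Tmem203, which overlaps Ndor1 on the annotation, stood at -0.40 on the log2 scale (SE 0.24, DESeq2 adjusted p 0.999). Within 1 Mb of Ndor1, 26 other genes had a mean of at least 50. Of these 0 were called, 8 were lower in all 3 pairs and 0 higher, with Pnpla7 lowest at -0.54, which was also among the 87 genes of the fit of separate libraries. Near Tdg, 0 of 14 such genes were called, and 7 were higher and 2 lower in all pairs. Near Gt(ROSA)26Sor, the reporter locus, 0 of 17 were called, and 2 were higher and 3 lower in all pairs, with Ttll3 lowest at -0.71. Over all 9858 genes with a mean of at least 50, 17.9% were higher and 16.3% lower in all pairs. The part of the inserted and floxed alleles in these values was not tested.

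Lta (chromosome 17, 35340110 to 35342296) encodes lymphotoxin alpha, which T cells secrete or display with lymphotoxin beta and which organises lymphoid tissue. Its normalised counts were 2870, 2570 and 779 in TDG iKO and 1510, 1440 and 371 in WT. Each TDG iKO sample was about as far above its partner, although both samples of pair 3+4 were lower than those of the other pairs, so the groups overlapped. The log2 fold change was 0.95 (SE 0.12, DESeq2 adjusted p 4.13e-12; edgeR adjusted p 0.0158). Tnf, which lies 1158 bases away and encodes the related cytokine, had 354, 359 and 505 in TDG iKO and 342, 377 and 388 in WT, a change of 0.14 (SE 0.18, DESeq2 adjusted p 0.999). Nfkbil1 on the other side of Lta had 0.03 (SE 0.17).

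P2ry14 (chromosome 3, 58918548 to 58934546) encodes a receptor for UDP-glucose and related sugars. It had 468, 365 and 278 normalised counts in TDG iKO and 151, 132 and 183 in WT, without overlap, and the change was 1.20 (SE 0.23, DESeq2 adjusted p 0.000598; edgeR adjusted p 0.229). Its neighbour Gpr171, an orphan receptor of the same cluster that is more abundant in these cells, had a change of -0.11 (SE 0.11). Over all called genes, 17 of the 30 nearest annotated neighbours had a mean of at least 50. Of these 0 were called, and their changes lay between -0.43 (Plekhg2, beside Zfp36) and 0.19 (Pdhx, beside Cd44).

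The promoters of Lta and P2ry14 are printed because TDG acts on oxidised cytosines, which arise at CpG, and these were the genes with the smallest adjusted p and the largest non-overlapping increase. Each window spans 250 bases before to 50 after a RefSeq start site (GRCm38.p6 table), was matched exactly to mm9, reads 5′ to 3′ on the gene's strand, here the minus strand for both, and has each CpG in capitals.
Lta, chr17:35342247-35342546: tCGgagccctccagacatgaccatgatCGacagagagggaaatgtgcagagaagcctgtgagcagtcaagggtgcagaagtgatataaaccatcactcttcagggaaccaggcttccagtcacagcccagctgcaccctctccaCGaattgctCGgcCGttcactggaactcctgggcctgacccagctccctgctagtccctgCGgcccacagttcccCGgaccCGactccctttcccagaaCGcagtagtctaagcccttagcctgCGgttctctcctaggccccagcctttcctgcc
P2ry14, chr3:58934635-58934934: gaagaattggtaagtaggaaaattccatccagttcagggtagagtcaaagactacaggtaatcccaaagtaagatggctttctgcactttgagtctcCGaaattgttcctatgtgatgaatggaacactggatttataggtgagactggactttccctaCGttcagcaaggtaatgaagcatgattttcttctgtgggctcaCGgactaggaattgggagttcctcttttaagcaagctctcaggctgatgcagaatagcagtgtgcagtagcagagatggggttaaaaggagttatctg
The windows hold 10 and 3 CpG, and the P2ry14 window is the nearest to its annotated start of 4 listed for the gene. Over all 8124 genes with a window and a mean of at least 50, the number of CpG was nearly unrelated to the change (Spearman rho -0.0462 across genes, which are not independent replicates). Of 5 bins of equal size, the bin with 0 to 13 CpG had a median log2 fold change of 0.00 and the bin with 31 to 65 CpG one of -0.01.

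Other genes for surface, secreted and structural proteins rose. Cd44, the hyaluronan receptor that is high on activated and memory T cells, had 1730, 1460 and 2550 normalised counts in TDG iKO and 922, 1030 and 2070 in WT. The difference was smaller in pair 3+4, and the log2 fold change was 0.56 (SE 0.14, DESeq2 adjusted p 0.0265). Nrn1, which encodes the small GPI-anchored protein neuritin, had 295, 283 and 454 against 173, 133 and 251, without overlap, a change of 0.89 (SE 0.20, DESeq2 adjusted p 0.0094). Igfbp4, a secreted binding protein for insulin-like growth factors, had 10800, 8080 and 13200 against 6720, 5470 and 10300, which is 0.53 on the log2 scale (SE 0.10, DESeq2 adjusted p 0.000598). The efflux transporter Abcg2 had 985, 815 and 837 against 597, 604 and 539, without overlap, a change of 0.60 (SE 0.14, DESeq2 adjusted p 0.0166).

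Ermn, an actin-binding protein best known from oligodendrocytes, had the largest of the called increases and the least even one. Its normalised counts were 302, 112 and 64.7 in TDG iKO and 52.2, 90.1 and 12.2 in WT, so pair 2 differed little, and the change of 1.77 (SE 0.39, DESeq2 adjusted p 0.00842) ranged from 1.37 to 2.47 over the alternatives. H2-Q10, a class I-like molecule of the major histocompatibility complex, had 787, 623 and 160 against 407, 389 and 107, a change of 0.74 (SE 0.17, DESeq2 adjusted p 0.0152). It belongs to a family of near-identical genes, among which reads may be split or dropped, so its value is uncertain.

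Ero1l, the oxidase of the endoplasmic reticulum that forms disulfide bonds, had 18900, 15100 and 8080 normalised counts in TDG iKO and 10900, 11600 and 6500 in WT, a change of 0.50 (SE 0.11, DESeq2 adjusted p 0.0108). Egln3, the prolyl hydroxylase that marks hypoxia-inducible factors for destruction and is itself induced by low oxygen, had 9030, 7950 and 5690 against 6450, 6370 and 4480, a change of 0.38 (SE 0.10, DESeq2 adjusted p 0.0492). In both genes each TDG iKO sample was above its partner, and pair 3+4 lay lower in both genotypes. Egln3 was closest to the threshold of the called genes and was lost under 10 of the 14 alternatives. Their promoters are printed because both genes are known targets of hypoxia-inducible factors, which bind the core letters ACGTG and GCGTG. The windows are as above, on the minus strand, with these letters on either strand in capitals.
Egln3, chr12:55304812-55305111: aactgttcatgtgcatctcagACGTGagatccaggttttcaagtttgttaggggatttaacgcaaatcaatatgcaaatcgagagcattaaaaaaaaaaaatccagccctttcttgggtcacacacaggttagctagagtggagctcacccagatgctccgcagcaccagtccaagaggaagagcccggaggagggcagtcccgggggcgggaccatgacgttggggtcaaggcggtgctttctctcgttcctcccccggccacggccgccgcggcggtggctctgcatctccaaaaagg
Ero1l, chr14:45938198-45938497: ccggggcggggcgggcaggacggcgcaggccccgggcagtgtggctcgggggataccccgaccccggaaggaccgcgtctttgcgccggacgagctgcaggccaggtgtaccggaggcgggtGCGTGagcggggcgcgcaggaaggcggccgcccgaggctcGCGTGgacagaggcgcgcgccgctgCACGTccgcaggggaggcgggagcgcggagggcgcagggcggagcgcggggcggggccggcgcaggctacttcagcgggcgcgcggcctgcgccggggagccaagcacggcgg
The Egln3 window holds 1 such match and the Ero1l window 3. Of all 32851 windows in the table, 43.8% hold at least 1, and of the windows of lists described below, 80% of 35 for glycolysis, 66.7% of 51 for oxidative phosphorylation and 57.9% of 19 for cholesterol synthesis. The windows of all 3 lists are also richer in CpG, with medians of 20, 19 and 23 against 7, and every match contains a CpG. The matches describe the sequence and are not binding sites found in these cells.

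Of the genes that fell, Maf (chromosome 8, 118206842 to 118231694) encodes c-MAF, the transcription factor that activates Il4 in Th2 cells and Il10 in several helper lineages. It had 1550, 1320 and 1260 normalised counts in TDG iKO and 2770, 2340 and 1660 in WT. Every TDG iKO sample lay below every WT sample, and the change was -0.68 (SE 0.13, DESeq2 adjusted p 0.000258; edgeR adjusted p 0.199). Ikzf3, which encodes the Ikaros family factor Aiolos, had 2140, 2520 and 1410 against 3730, 3840 and 1800, which is -0.58 on the log2 scale (SE 0.12, DESeq2 adjusted p 0.00131). Its decrease was smaller in pair 3+4, where both samples were lowest, and the groups overlapped.

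Zfp36 and Zfp36l2 encode related proteins that bind AU-rich elements of mRNAs, many of them for cytokines, and speed their decay. Zfp36 had 2000, 1910 and 1210 normalised counts in TDG iKO and 2950, 2540 and 1550 in WT, a change of -0.44 (SE 0.11, DESeq2 adjusted p 0.0455). Zfp36l2 had 2740, 2840 and 4010 against 4590, 3650 and 4950, a change of -0.47 (SE 0.12, DESeq2 adjusted p 0.0421). Each fell in all pairs. Zfp36 was called in 0 and Zfp36l2 in 1 of the 5 fits that left out a replicate or the pair 3+4.

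Of the genes that define Th2 cells, Maf alone was called, and the cytokine genes were not. Of the 27 measured members of the Th2 programme list (mean of at least 50), 0 were called higher and 1 lower (Maf), 1 was higher in all 3 pairs and 5 were lower, shares of 3.7% and 18.5% beside 17.9% and 16.3% over all 9858 genes. The median log2 fold change was -0.05, beside 0.01 over all genes, and ran from -0.13 in pair 1 and -0.12 in pair 2 to 0.06 in pair 3+4. Il4 had 1220, 1210 and 630 normalised counts in TDG iKO and 1340, 1220 and 554 in WT, and the 95% interval of its change (0.02) ran from -0.24 to 0.27. Il5 had 289, 357 and 39.5 against 286, 386 and 46.9, with an interval of -0.52 to 0.30. Il13 had 797, 562 and 131 against 592, 569 and 97.8, with an interval of -0.05 to 0.61. All these cytokines were lower in pair 3+4 of both genotypes than in the other pairs.

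Gata3, the lead transcription factor of the lineage, had 3930, 4580 and 5220 normalised counts in TDG iKO and 6210, 5030 and 6200 in WT. It was lower in TDG iKO in each pair, by the most in pair 1, and its change of -0.35 (SE 0.12) had an unadjusted p of 0.00312 but a DESeq2 adjusted p of 0.438 over all genes. Stat6, which relays the IL-4 signal, had 2560, 2820 and 2830 against 2640, 2630 and 2900, with an interval of -0.20 to 0.21. Epas1, which encodes a hypoxia-inducible factor, had a change of -0.39 (SE 0.13, DESeq2 adjusted p 0.467), with 3230, 3810 and 4170 against 5700, 4580 and 4410. The transcription factor genes Gfi1 and Junb, also lower in all pairs, had -0.29 and -0.18. Il24, a cytokine of the IL-10 family, had the highest change of the list at 0.29 but opposite signs in pairs 2 and 3+4. The chemokine receptor Ccr8 had a change of -0.35 (SE 0.15, DESeq2 adjusted p 0.815) and Ccr4 one of 0.04 (SE 0.10). Il1rl1 had 1.19, 3.72 and 403 against 0, 12.6 and 607, so its level was set by the pair and its change (-0.67, SE 0.38) had opposite signs in pairs 1 and 2.

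Of the 12 measured regulators and cytokines of other helper lineages 0 were called, with a median of -0.07, from Il21, a cytokine of follicular helper cells, at -0.46 to Eomes, a factor of cytotoxic cells, at 0.69 (82.3, 153 and 95.3 normalised counts against 58.9, 52.3 and 83.9, DESeq2 adjusted p 0.958). Foxp3, the regulatory T cell factor, had 16.7, 35.3 and 21.7 in TDG iKO and 60.6, 45.1 and 43.1 in WT, below the mean of 50 set for the list, at -1.06 on the log2 scale (SE 0.49, DESeq2 adjusted p 0.906). The T cell receptor and costimulation list had 1 member of 28 called (Cd44), a median of 0.03, Plcg1 lowest at -0.29, and 3 members higher and 3 lower in all pairs. Among the 20 naive and quiescence genes 0 were called. Slfn2, a gene of T cell quiescence, was lowest at -0.31. The median of that list was 0.24 in pair 1, -0.04 in pair 2 and -0.30 in pair 3+4, so the pairs differed in sign.

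Most genes of the glycolysis and cholesterol synthesis lists were slightly higher in TDG iKO, nearly all without passing the test, as the plot of both lists shows. Of 23 measured genes of the glycolysis list 1 was called higher (Egln3) and 0 lower. Egln3, the prolyl hydroxylase described above, is not a glycolytic enzyme, nor are Bnip3, Mif and Pdk1, which the list also holds. In all 3 pairs 12 of the 23 were higher (52.2%, beside 17.9% over all genes) and 0 lower, and the median log2 fold change was 0.13. The glucose transporter Slc2a3 had 20700, 15800 and 11000 normalised counts in TDG iKO and 10300, 11200 and 10200 in WT, a change of 0.53 (SE 0.14, DESeq2 adjusted p 0.0721) that was large in pair 1 and 0.10 in pair 3+4. The lactate transporter Slc16a1 had 1930, 1940 and 1190 against 1450, 1570 and 945, an even change of 0.35 (SE 0.11, DESeq2 adjusted p 0.398). Phosphoglycerate kinase, Pgk1, had 31800, 28600 and 18000 against 24700, 27400 and 15300, a change of 0.22 (SE 0.10). Gapdh and Pfkl were at 0.02 and -0.03. Without pair 1, 15 of the 23 were higher in both remaining pairs (65.2%, beside 25.4% of all genes), a count added after the data were examined.

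**Figure D3:**
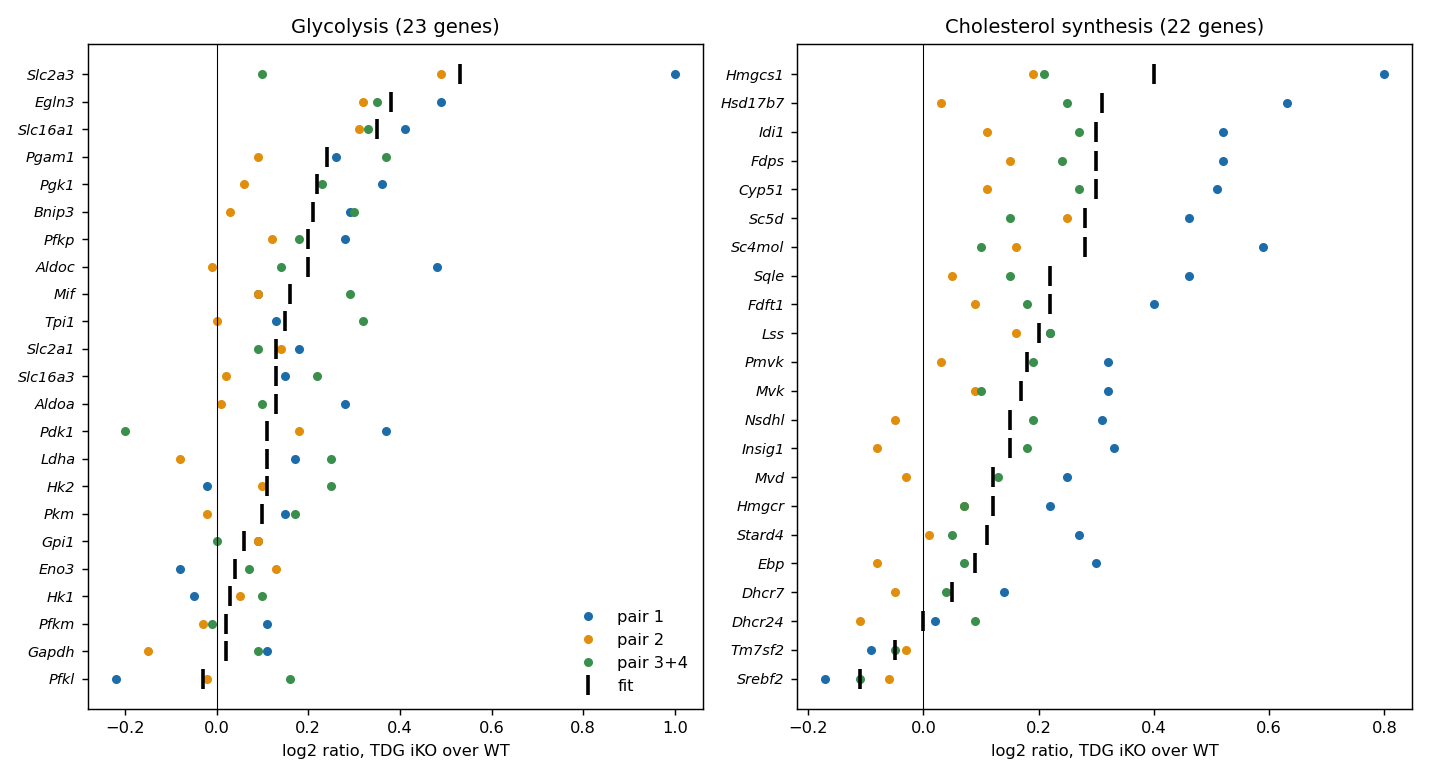
Log2 ratio (TDG iKO over WT) of each measured gene of the glycolysis list (left) (23 genes) and of 22 genes of the cholesterol synthesis list (right), with a coloured point for each replicate pair and a black bar for the paired fit. Most points lie right of 0 in both panels, pair 1 the farthest in the cholesterol list, with Hmgcs1 at 0.80.

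Of the 23 cholesterol synthesis genes 0 were called, 14 were higher in all 3 pairs (60.9%, beside 17.9%) and 2 lower, and the median was 0.17. Hmgcs1, which makes the precursor of mevalonate, was highest, with 5140, 3530 and 3270 normalised counts in TDG iKO and 2950, 3100 and 2840 in WT, a change of 0.40 (SE 0.13, DESeq2 adjusted p 0.398). Fdps, which makes farnesyl diphosphate, had 5410, 4370 and 3480 against 3770, 3940 and 2940 (0.30, SE 0.11), and Cyp51, a sterol demethylase, had 5870, 4800 and 2990 against 4110, 4450 and 2480 (0.30, SE 0.11). Srebf2, the transcription factor that drives the pathway, was lowest at -0.11 (SE 0.10). The list median was 0.32 in pair 1, 0.05 in pair 2 and 0.15 in pair 3+4, and without pair 1 the count was again 14 of 23.

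Oxidative phosphorylation and cytosolic ribosomal protein genes, most of them short, were higher by a little. Of 56 nuclear-encoded respiratory chain and ATP synthase genes 0 were called, 32 were higher in all pairs (57.1%) and 1 lower, with a median of 0.10. Ndufb3, a subunit of complex I, was highest at 0.24 and Atp5a1 lowest at -0.63 (SE 0.40), at a mean of 41.7 against 63.1 normalised counts. Of 72 ribosomal protein genes 0 were called, 25 were higher in all pairs (34.7%) and 0 lower, with a median of 0.12 in the fit and -0.02 in pair 3+4. Without pair 1 the counts of higher members were 34 (60.7%) and 25 (34.7%), beside 25.4% of all genes. Rpl23a was highest at 0.27 (SE 0.11) and Rplp1 lowest at -0.06. Ribosomal protein genes have many processed copies, so their counts are uncertain.

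**Figure D4:**
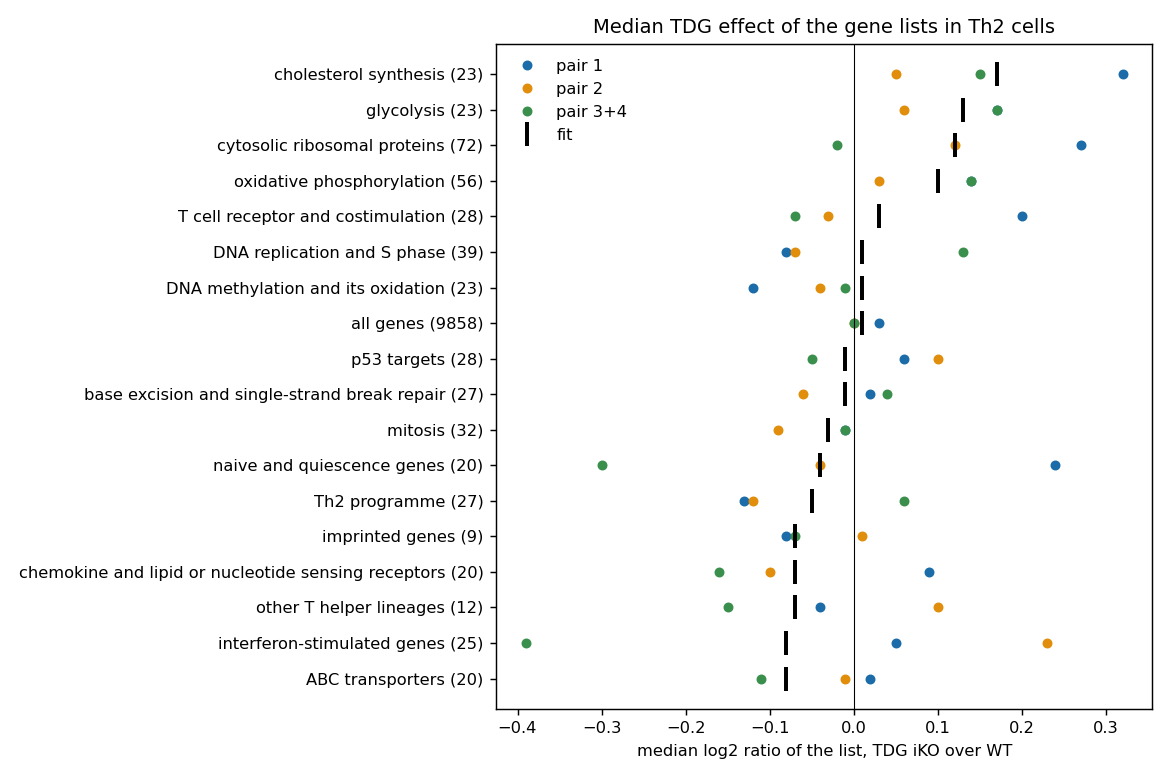
Median log2 ratio (TDG iKO over WT) of each gene list with at least 9 measured members, with the number of members in brackets, a coloured point for each replicate pair and a black bar for the paired fit. Cholesterol synthesis and glycolysis lie right of 0 in all pairs, whereas the naive and quiescence genes spread from -0.30 to 0.24.

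The genes that act with TDG on DNA showed no call. Of 23 measured genes of DNA methylation and its oxidation 0 were called, 2 were higher and 7 lower in all pairs (8.7% and 30.4%), and the median was 0.01. Dnmt1, which copies methylation at replication, had 4430, 4960 and 5750 normalised counts in TDG iKO and 5990, 5210 and 5830 in WT, with an interval of its change of -0.39 to 0.04. Its partner Uhrf1 had an interval of -0.19 to 0.22. Gadd45a, a stress-induced gene linked to demethylation, was highest at 0.42 and Tet3 lowest at -0.28 (SE 0.17). Tet2 had 1280, 1560 and 2060 against 1770, 1630 and 2080, a change of -0.18 (SE 0.13). Of 27 base excision and strand break repair genes 0 were called, 5 were higher and 3 lower in all pairs, and the median was -0.01. Among other uracil or thymine glycosylases, Ung, Mbd4 and Smug1 had changes of 0.20 (SE 0.16), -0.09 (SE 0.19) and 0.09 (SE 0.25). The endonuclease VIII-like gene Neil1 and the endonuclease III homologue Nthl1 were the extremes at -0.29 (SE 0.24) and 0.37 (SE 0.30). None of these was called.

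In the lists of growth, damage and interferon responses 0 genes were called, and the shares that moved one way in all pairs lay on both sides of those over all genes (17.9% higher and 16.3% lower). Of 28 p53 targets 0 were called and 8 were higher in all pairs (28.6%) and 4 lower (14.3%), among them Cdkn1a, the cell cycle inhibitor p21, at 0.26 (SE 0.10, DESeq2 adjusted p 0.671), with a list median of -0.01 and a range from -0.24 (Plk3) to 0.41 (Cd80). Of 39 DNA replication genes 2 were higher (5.13%) and 3 lower (7.69%) in all pairs, with a median of 0.01 and a range from -0.30 (E2f2) to 0.16 (Orc6). Of 32 mitosis genes 1 was higher (3.12%) and 10 lower (31.2%), with a median of -0.03 and Kif23, a motor of cytokinesis, lowest at -0.32 and the survivin gene Birc5 highest at 0.09. Of 25 interferon-stimulated genes 0 were higher and 2 lower (8%) in all pairs, and their median ran from 0.23 in pair 2 to -0.39 in pair 3+4, with -0.08 in the fit. Cmpk2 and Isg15 were their extremes at -0.69 and 0.38, neither called. Germline genes, which DNA methylation holds silent, and imprinted genes were mostly below the mean of 50. The 9 imprinted genes measured had a median of -0.07 and lay between -0.30 (Zrsr1) and 0.13 (Commd1), the 2 germline genes (Piwil2 and Stag3) were at -0.12 and -0.10, and 0 were called.

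In the list of chemokine, lipid and nucleotide receptors P2ry14 was the 1 member called, and 7 of the 20 measured were lower in all pairs (35%), with a median of -0.07. Cxcr6, the receptor for CXCL16, had 340, 167 and 598 normalised counts in TDG iKO and 389, 333 and 815 in WT, a change of -0.52 (SE 0.18, DESeq2 adjusted p 0.532), and Ccr2 was lowest at -0.55 (SE 0.22). Of the 20, the adenosine receptor gene Adora2b followed P2ry14 at 0.59 (DESeq2 adjusted p 0.958). In the fit of separate libraries both were among the 87 called (DESeq2 adjusted p 0.05 for Cxcr6 and 0.0157 for Ccr2). Besides Abcg2, 6 of the 20 ABC transporters were lower in all pairs (30%) and the median was -0.08. Without pair 1, the share lower in both remaining pairs was 60% for the naive and quiescence genes (12 of 20), 55% for these receptors (11 of 20), 50% for the ABC transporters (10 of 20), 42.9% for the T cell receptor and costimulation list (12 of 28), 40.6% for mitosis (13 of 32), 39.1% for DNA methylation (9 of 23) and 25.9% for the Th2 programme (7 of 27), beside 27.4% of all genes. Abca2 and Abca7, long genes of lipid transport, were at -0.43 (SE 0.14) and -0.39 (SE 0.14).

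Of the other genes among the 87 of that fit, the following were chosen after their values were seen. Vdac1, the channel of the outer mitochondrial membrane, had 0.37 (SE 0.07, DESeq2 adjusted p 0.000116), Fam162a, a mitochondrial protein induced by hypoxia, 0.32 (SE 0.08, DESeq2 adjusted p 0.00803), and Plod2, a collagen lysyl hydroxylase, 0.36 (SE 0.10, DESeq2 adjusted p 0.0253). The metallothionein genes Mt1 and Mt2 had 0.50 (SE 0.10) and 0.43 (SE 0.12). Kctd12 had -0.87 (SE 0.15, DESeq2 adjusted p 2.08e-05) and the nucleotidyltransferase genes Fam46a and Fam46c had -0.36 (SE 0.06) and -0.51 (SE 0.10). With replicates 3 and 4 summed, the adjusted p of these genes was 0.0721 to 0.467. The effects of the 3 pairs were weakly related across the 9858 genes with a mean of at least 50 (Pearson r 0.122 between pairs 1 and 2, 0.165 between pairs 1 and 3+4, 0.0494 between pairs 2 and 3+4, a description across genes). Their SD was 0.448 in pair 1, 0.26 in pair 2 and 0.225 in pair 3+4. Of the 87, 86 moved the same way in all 3 pairs, but the blocked fit that chose them favours such genes. Over all genes with a mean of at least 50, 17.9% were higher and 16.3% lower in all 3 pairs.

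Several genes had larger differences than most called ones without passing the test. Among uncalled genes with a mean of at least 100 that moved the same way in all pairs, Txk, a kinase of the Tec family, had the highest change (1.08, SE 0.38, DESeq2 adjusted p 0.539), with 83.5, 40.9 and 340 normalised counts in TDG iKO and 16.8, 14.4 and 320 in WT. Tgm2, transglutaminase 2, had 4530, 4270 and 153 against 2690, 3210 and 43.7 (0.98, SE 0.40). Ms4a4b and Amica1 were at 0.91 (SE 0.50) and 0.87 (SE 0.28). The lowest were Zfhx2 (-0.89, SE 0.35), Gltscr1 (-0.84, SE 0.57), Adamtsl3 (-0.84, SE 0.35), Tnrc18 (-0.82, SE 0.61) and Plec (-0.81, SE 0.58). Plec, the cytoskeletal linker plectin, had 717, 776 and 7550 against 2980, 869 and 9080, so that the largest difference was in pair 1 and the level in pair 3+4 was higher in both genotypes. Adamtsl3 had 633, 672 and 1150 against 1540, 1450 and 1250, without overlap.

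Across genes the change was lower at greater exonic length (all annotated exons of a gene joined), mainly in pairs 1 and 3+4. Over 9385 genes with an annotated exonic length (95.2% of those with a mean of at least 50), Spearman's rho between length and log2 fold change was -0.312, a description across genes that share the same 6 samples. The median ran from 0.08 in the shortest of 5 bins (up to 2140 bases) through 0.03, 0.01 and -0.03 to -0.07 in the longest (6270 bases and more). By pair, rho was -0.283 in pair 1, -0.056 in pair 2 and -0.246 in pair 3+4, so the trend was nearly absent in pair 2. Length also separated the samples within a genotype: the rho of a sample's deviation from the gene mean was -0.363 for TDG iKO sample 1, 0.26 for TDG iKO 3+4 and 0.284 for WT 3+4.

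**Figure D5:**
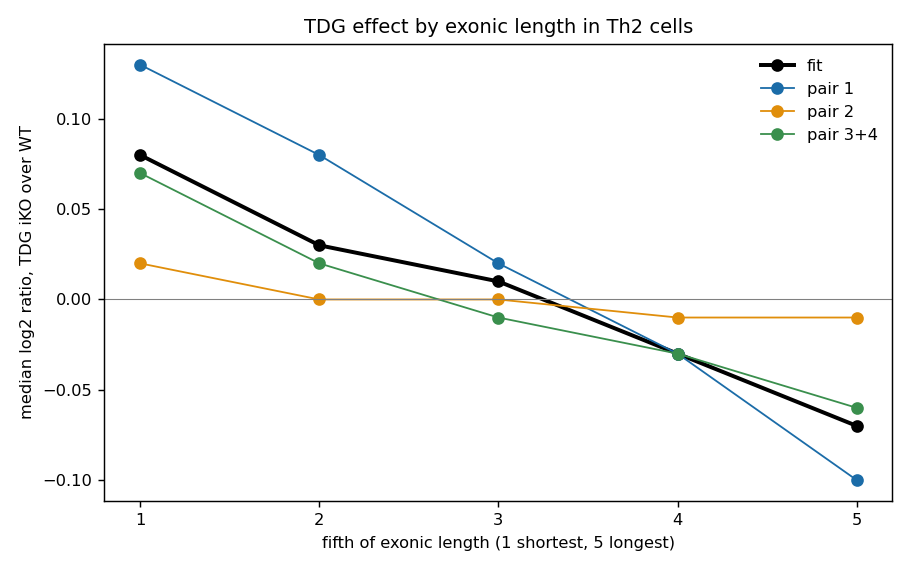
Median log2 ratio (TDG iKO over WT) in 5 bins of annotated exonic length, 1877 genes each, for the paired fit (black) and for each replicate pair. The fit falls from 0.08 to -0.07, pair 1 from 0.13 to -0.10 and pair 3+4 from 0.07 to -0.06, and pair 2 stays between 0.02 and -0.01.

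With a normalisation that takes out the length trend (rho -0.0097), 14 of the 15 genes were still called, all but Egln3. The median of the glycolysis list was then 0.12 and that of cholesterol synthesis 0.15, close to the values above, whereas oxidative phosphorylation moved from 0.10 to 0.05 and the ribosomal proteins from 0.12 to 0.06. The ABC transporters moved from -0.08 to -0.02. Whether the trend arose in the cells or in the libraries was not tested.

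Markers of other cell types were measured in the same libraries, and their part in the results was not tested. Summed over 12 myeloid markers, TDG iKO libraries held 24 to 76.6 CPM and WT libraries 30.3 to 83.5 CPM, with Csf1r, S100a8 and S100a9 at 0 in every library and Emr1 the most abundant on average, at 6.88 to 55.6 CPM. Over 12 B cell markers the sums were 89.6 to 144 and 76.3 to 121 CPM, with H2-Ab1 the most abundant, and over 11 CD8 and NK markers 107 to 213 and 136 to 145 CPM, with Gzma the most abundant. The 11 mast cell, basophil and eosinophil markers summed to at most 2.1 CPM and the 9 erythroid and platelet markers to at most 3.13 CPM. Of the 3 myeloid markers with a mean of at least 50, 0 were higher and 1 was lower in all pairs (Emr1, -0.41), with a median of -0.34. Of the 2 such B cell markers H2-Ab1 was higher in all pairs (0.23) and Cd74 mixed (0.03). Of the 3 such CD8 and NK markers 2 were higher in all pairs, Eomes (0.69, SE 0.35) and Cd8b1 (0.33, SE 0.20), and Gzma was mixed (-0.03), with a median of 0.33. None of these was called. In bulk RNA, fewer cells of a kind and less RNA per cell cannot be told apart.

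Unstimulated bone marrow-derived macrophages (BMDMs), with 2 TDG iKO and 2 WT libraries from C57BL/6 mice, served to ask whether the effect differed between cell types. The difference of the TDG effect between Th2 cells and BMDMs passed the threshold for 1 of 16624 genes (0.00602%), Cyp2s1, and for 0 of the 15 Th2 genes, whose DESeq2 adjusted p for the difference was 0.689 to 1. In BMDMs those 15 had the same sign in 8 cases, with adjusted p of 0.897 or more. Ndor1 was at -0.54 (SE 0.34) in BMDMs, P2ry14 at 0.36 (SE 0.36), Maf at -0.08 (SE 0.23) and Igfbp4 at -0.45 (SE 0.21), against 0.53 in Th2 cells. The SE in BMDMs was under 0.5 for 10 of the 15, and for genes such as Lta (1.34, SE 1.14) they could not show whether the effect is shared.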

How the data were processed

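The deposited files hold raw counts of reads per gene symbol, 1 file per library. Per the labels the authors aligned reads with HISAT2 to mm9, counted them with HTSeq-count and used DESeq2 1.30.0. The annotation and strand setting were not given in the sources used here, so overlapping antisense genes may share reads. Reads of no gene (48.2% to 51.6% of each library) were left out. Which of the sequencers named in the study ran which library was not stated.

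Replicates 3 and 4 were summed within genotype. Same-numbered samples deviated together (correlation 0.51, 0.733 and 0.919), but so did TDG iKO 1 with WT 2 (0.66) and TDG iKO 2 with WT 1 (0.701), so that the correlations separate the library sets and not replicates 1 and 2. The comparison was set to pair samples by replicate number, so the number was a block in DESeq2 1.42.0 (R 4.3.3). These correlations do not justify that block over other pairings of replicates 1 and 2. The test was the two-sided Wald test with a Benjamini-Hochberg adjusted p under 0.05. Counts divided by size factors are given as normalised counts. The BMDM difference was an interaction term. Alternatives were edgeR 4.0.16, no block, separate libraries, TMM factors, a low-count filter, a length-dependent normalisation and leaving out replicates; a batch term and lists without pair 1 were chosen after seeing the data. Named genes are those called, a fixed set of Th2 and TDG-related genes, the 5 highest and 5 lowest uncalled genes (mean at least 100, same direction in all pairs) and the extremes and called members of each list; others were chosen after their values were seen. The members and lists were chosen with earlier results of these data known. Lengths came from GENCODE M1 (21259 of 23420 symbols matched) and promoters from RefSeq (17800 matched). Scripts were tested on simulated data. The authors' own comparisons were not used. Some genes that meet this rule are not reported here.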

Additional observations from a re-analysis of the deposited data

Results flagged for a closer look

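Cyp2s1, a cytochrome P450 gene, was the 1 gene whose TDG effect differed between Th2 cells and unstimulated BMDMs in the interaction test (log2 difference -2.51, SE 0.50, DESeq2 adjusted p 0.00988). In Th2 cells its normalised counts were 371, 327 and 533 in TDG iKO and 241, 283 and 709 in WT, a change of 0.13 (SE 0.29). In BMDMs they were 244 and 356 in TDG iKO and 28.2 and 78.1 in WT, which is 2.64 on the log2 scale (SE 0.41, DESeq2 adjusted p 2.3e-06). The Th2 groups overlapped and the BMDM groups did not. With edgeR, without the pair as a block, without Th2 replicate 2 and without Th2 replicates 3 and 4, 0 genes passed the test of the difference.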

How the results depend on the processing

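Main count of called Th2 genes, 15: it was 0 with no replicate block, 87 with 8 libraries and the block, 2 with 8 libraries and no block, 2 with edgeR and the block, 7 with edgeR, 8 libraries and the block, and 42 with batch in place of the pair. Leaving out replicates gave 2 to 15 calls, with 2 without pair 1 and 5 without pair 2. The cause was not tested. TMM factors gave 19 and the low-count filter 13. The 15 called genes kept their direction under every alternative run. Each alternative used the same libraries or a part of them, so this is no separate support. The calls were kept in 4 (Egln3 and Zfp36) to 12 (Lta and Ndor1) of the 14 alternatives.

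For the difference from BMDMs, main count 1, the counts were 0 with no replicate block (210 at an unadjusted p under 0.05), 0 with edgeR (604) and 2 with 8 libraries, and leaving out replicates gave 0 to 2628, the highest without BMDM replicate 1, which leaves 1 BMDM pair whose samples are assumed to vary like the others. The length correlation was -0.0097 after length-dependent normalisation, which removes it by construction. Changes near 0 took the other sign: Il4 had -0.02 with no replicate block, -0.06 with length-dependent normalisation, -0.01 without replicate 4 and -0.08 without replicates 3 and 4. Stat6 had -0.00 with 8 libraries and the block, -0.01 without the block, -0.01 with edgeR and 8 libraries, -0.00 with TMM factors, -0.04 without replicate 2 and -0.00 without replicate 3. Without replicates 3 and 4, Ccr4 had -0.01 and Uhrf1 -0.07. Over the fits that left out replicates, the changes ran from -0.08 to 0.09 for Il4, from -0.04 to 0.03 for Stat6, from -0.01 to 0.06 for Ccr4 and from -0.07 to 0.07 for Uhrf1.

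With 3 samples per genotype small differences go undetected, and Tdg itself was at the counting floor.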
